A study of Mus musculus with 8 samples.

Results

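The genes described here are 57 Polycomb, trithorax and histone-modifying genes, taken by their symbols from a list and read in every library. All 57 were found among the 39179 gene identifiers of the deposited tables. They comprise 9 subunits of Polycomb repressive complex 2 (PRC2), 13 subunits of Polycomb repressive complex 1 (PRC1), 7 genes of the trithorax MLL complexes, 8 other histone methyltransferases, 7 histone demethylases, 8 deacetylases of which 3 are sirtuins, and 5 acetyltransferases. Stranded total RNA sequencing had profiled common lymphoid progenitors (CLPs), the marrow cells from which lymphoid lineages form, in C57BL/6 mice, with no other allele or genotype and no age named. The 4 ex vivo CLP libraries came from cells sorted directly from bone marrow, and the 4 cCLP libraries from cells cultured for 2 months on OP9, a mouse bone marrow stromal line, with Flt3L and a low dose of IL-7. Both populations were sorted as lineage-negative cells positive for Flk2, IL7R and CD27 and negative for Ly6d. The labels name no animal, culture or batch, so p-values measure only the spread between these libraries, which may be technical.

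PRC2 methylates lysine 27 of histone H3 through Ezh2 or its paralog Ezh1, and PRC1, through a RING ligase, a PCGF subunit and either a CBX reader or another partner, ubiquitinates histone H2A and compacts chromatin. Trithorax MLL complexes methylate lysine 4 of histone H3 and keep genes active, and both systems were first defined by their control of Hox genes. Histone demethylases, deacetylases and acetyltransferases reverse or set further marks, and in blood progenitors many of these enzymes are needed for self-renewal and lineage choice.

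Deposited values were whole numbers that varied less between libraries than read counts can, so their unit is a score of unknown depth, and no counting interval can be given. Scaled values below are these scores divided by a library factor. Their relation to gene length is unknown, so levels of different genes were not compared. Subunit ratios given below are therefore read only for their difference between the groups. Library sums ran from 378594 to 704305, with 11371 to 12779 genes above 0. Those labelled ex vivo CLP 2 and cCLP 1 lay with the other group: across genes, ex vivo CLP 2 had Spearman correlations of 0.981 to 0.989 with cCLP 2 to 4 and of 0.87 to 0.898 with the other ex vivo libraries, while cCLP 1 had 0.973 to 0.985 with ex vivo CLP 1, 3 and 4 and 0.891 to 0.895 with cCLP 2 to 4. The group comparison was therefore run on all 8 libraries as labelled and on the 6 libraries without these, none being moved, and p-values of the 6-library comparison hold only given that choice. Of the sort genes, scaled Flt3 values were 204 to 257 in ex vivo CLP 1, 3 and 4 and 269 to 279 in cCLP 2 to 4, those of Il7r 17.0 to 73.98 and 194 to 228, and those of Cd27 75.98 to 103 and 72.7 to 82.8. Ly6d, which the sort excluded, read 29.0 to 35.5 and 0.839 to 1.07. Of further progenitor markers, Kit read 24.1 to 33.3 and 9.22 to 10.7, and Ly6a 25.5 to 31.7 and 0 to 0.952. Summed myeloid markers were 1433 to 3296 against 274 to 296, and 13 of 14 were tested and fell, 12 of them with all of one group below the filter. Elane, Ctsg, Csf1r, Csf3r, S100a8, S100a9, Ltf, Camp and Ngp were listed at 0 in cCLP 2 to 4. Dendritic cell markers summed to 700 to 770 against 343 to 350, with 7 of 9 tested lower and 0 higher, and H2-Aa and H2-Ab1 listed at 0 in cCLP 2 to 4. Batf3 was also listed at 0 there, but it was deposited at only 0, 1 and 0 in ex vivo CLP 1, 3 and 4 and was not tested. For 6 of the 9 tested, all of one group lay below the filter. This sum includes Flt3, given above, which did not fall. B lineage markers summed to 922 to 2398 against 560 to 684, with 3 of 6 tested higher and 3 lower. Dntt set the direction of that sum, with deposited values of 1874, 867 and 1205 in ex vivo CLP 1, 3 and 4. In cCLP 2 to 4 Dntt was listed at 82, 266 and 132. The 3 B lineage genes called higher were Rag1, Rag2 and Cd72, with Rag1 deposited at 7, 1 and 2 against 276, 281 and 391. The 3 called lower were Dntt, Cd79b and Blnk. Cd79b was deposited at 32, 30 and 43 against 1, 2 and 4, and Blnk at 20, 8 and 16 against 1, 3 and 2. T, NK and innate lymphoid markers summed to 137 to 161 against 104 to 110, with 1 of 5 higher and 3 lower. Proliferation markers summed to 2405 to 2637 against 1597 to 1747, with 14 of 20 lower and 0 higher, and 10 of 13 OP9 stromal markers were listed at 0 in all 8 libraries. In bulk RNA, fewer cells of a type and less RNA per cell cannot be told apart, and the part of these marker differences in any result below was not tested.

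Over the 8 libraries as labelled, no chromatin gene passed the test. Of the 57 genes, 38 reached the level filter (a scaled value of at least 10 in at least 4 libraries, or in at least 3 for the 6-library comparison), and limma called 0 of them at a Benjamini-Hochberg adjusted p below 0.05, against a background of 0.0% of 6555 genes tested. The groups did not overlap for 0 of the 38, where 3.48% of all genes were apart. At an unadjusted p below 0.05 there were 4 of 38, with a background of 7.51% (492 genes): Men1, Hdac1 and Cbx6 had higher means in cCLP and Suv39h1 a lower one. These 4 and Kdm4a, the next gene in order of p, all had an adjusted p of 0.485. For 35 of the 38 genes, the 95% interval of the fold change lay inside a 2-fold change, and for 20 it lay inside a 1.5-fold change. Of all genes tested, 81.4% and 55.8% did so. Over the 6 libraries the counts were 34 and 16 of 38, where 78.0% and 46.7% of all genes lay inside.

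Between ex vivo CLP 1, 3 and 4 and cCLP 2, 3 and 4, 16 of the 38 tested chromatin genes passed the test. These were 10 that rose in cCLP (Cbx2, Cbx8, Bmi1, Men1, Setdb1, Kdm4a, Kdm5a, Kdm5b, Hdac1 and Hdac2) and 6 that fell (Rbbp7, Nsd1, Suv39h1, Kdm2b, Sirt1 and Kat7). The share called was 42.1%, close to the background of 43.1% over 6586 genes, of which 21.1% were higher and 22.0% lower. Likewise, the groups were apart for 20 of 38 genes where 55.8% of all genes were apart, and 11 were called, apart and changed by at least 0.5 on the log2 scale, where the background was 29.6%. The median log2 fold change was 0.09 over the chromatin genes and 0.01 over all genes tested. Without cCLP 4 the number that rose was 6, and without ex vivo CLP 4, cCLP 2, cCLP 3 or cCLP 4 in turn the number that fell was 3. The heat map of all 57 genes shows the 2 libraries that lie with the other group beside the rest.

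**Figure D1:**
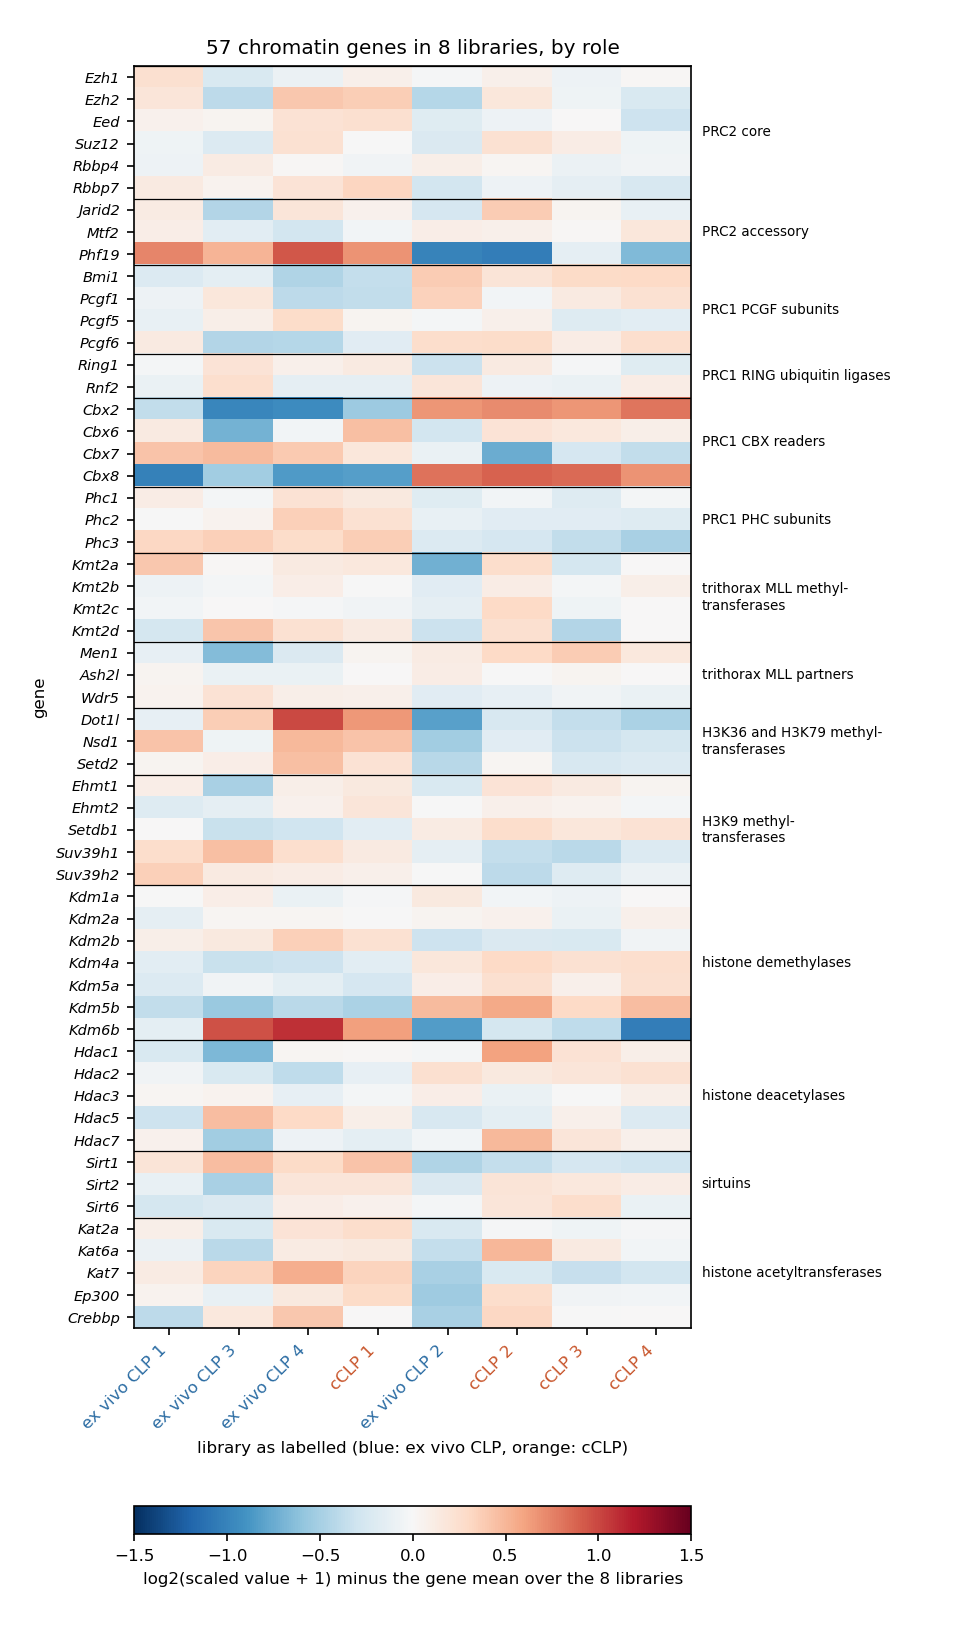
Each row is 1 of the 57 chromatin genes and each column 1 of the 8 libraries; colour gives log2(scaled value + 1) minus the mean of that gene over the 8 libraries. Ex vivo CLP 2 stands beside cCLP 2 to 4 and cCLP 1 beside ex vivo CLP 1, 3 and 4, and Cbx2 and Cbx8 are red (above their mean) in ex vivo CLP 2 and cCLP 2 to 4 and blue in the other 4 libraries.

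**Figure D2:**
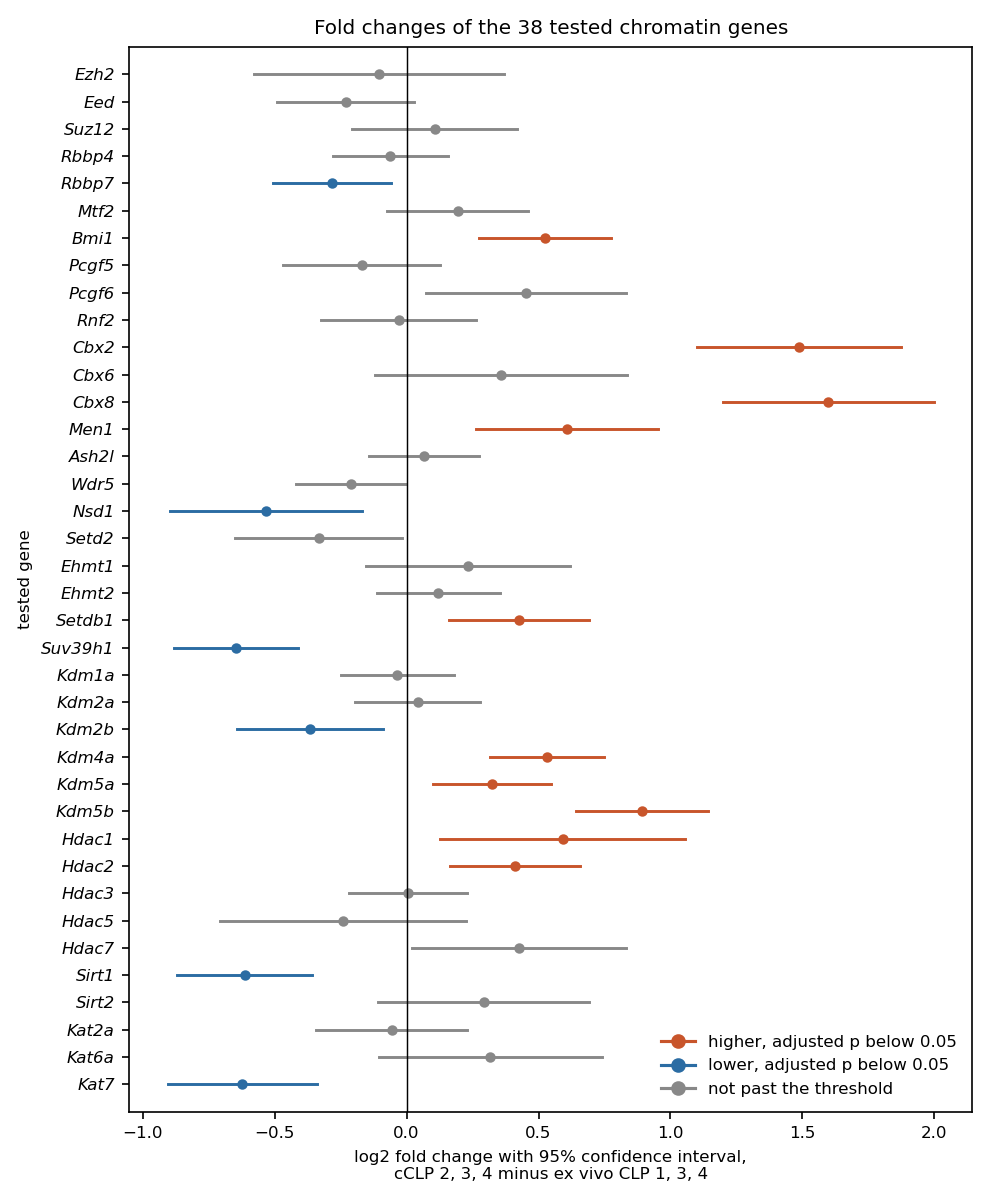
Points are log2 fold changes (cCLP minus ex vivo CLP) of the 38 tested chromatin genes over the 6 libraries, grouped by role, and bars are 95% intervals from limma. Cbx8 (1.60) and Cbx2 (1.49) lie to the right of all others, and Suv39h1 (-0.65) lies farthest to the left.

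Among PRC1 subunits the CBX readers Cbx2 and Cbx8, whose proteins bind methylated lysine 27 of histone H3, showed the highest rises of any chromatin gene tested. Scaled Cbx2 values in ex vivo CLP 1 to 4 were 12.1, 25.8, 7.60 and 7.79, and in cCLP 1 to 4 they were 10.6, 26.7, 25.7 and 28.5. Ex vivo CLP 2 reached the level of cCLP 2 to 4, and cCLP 1 lay among the other ex vivo libraries. Over the 6 libraries the mean was 9.17 ± 2.56 (SD, n = 3) in ex vivo CLP and 27.0 ± 1.42 (SD, n = 3) in cCLP. Its log2 fold change was 1.49 ± 0.17 (SE; limma adjusted p = 0.000267), and over the 8 libraries it was 0.81 ± 0.43 (adjusted p = 0.485). Cbx8 read 2.42, 11.2, 3.80 and 2.83 in ex vivo CLP 1 to 4 and 2.89, 11.8, 11.4 and 10.1 in cCLP 1 to 4. It was below the filter in each of ex vivo CLP 1, 3 and 4, so that only a rise could be tested, and its log2 fold change was 1.60 ± 0.17 (adjusted p = 0.000207) over the 6 libraries and 0.79 ± 0.59 (adjusted p = 0.504) over the 8. Both calls held under each alternative in which the gene was tested.

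These 2 genes are neighbours on mouse chromosome 11 (GRCm38): Cbx2 spans chr11:119022962-119031270 on the plus strand and Cbx8 spans chr11:119036305-119040969 on the minus strand, with 5034 bases between them. Cbx6, another reader, had values of 12.1, 8.96, 6.33 and 10.6 in ex vivo CLP 1 to 4 and 15.4, 12.8, 12.4 and 11.7 in cCLP 1 to 4. The groups overlapped, with a log2 fold change of 0.45 ± 0.19 over 8 libraries (unadjusted p = 0.047, adjusted p = 0.485) and 0.36 ± 0.21 (adjusted p = 0.201) over 6. Cbx7, the reader known from self-renewing blood stem cells, was below the filter throughout, at 3.64, 2.24, 3.80 and 3.54 in ex vivo CLP 1 to 4 and 2.89, 1.07, 1.90 and 1.68 in cCLP 1 to 4. An exon of Cbx7 overlaps 100 bases of Apobec3 on the opposite strand, which read 24.6 to 55.7; the strand setting of the counting is not stated, so reads there cannot be told apart. Exons of Mtf2, Rnf2, Hdac7 and Sirt2 likewise overlap an expressed gene on the opposite strand, and those of Suv39h2 overlap Dclre1c, which read only 1.90 to 2.53.

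Bmi1, the PCGF subunit long known to sustain stem cell self-renewal, at chr2:18677018-18686629, also rose. It read 36.4, 54.9, 37.99 and 30.5 in ex vivo CLP 1 to 4 and 32.7, 48.1, 51.4 and 52.0 in cCLP 1 to 4. All of cCLP 2 to 4 lay above ex vivo CLP 1, 3 and 4, and ex vivo CLP 2 had the highest value of all. The log2 fold change was 0.52 ± 0.11 (adjusted p = 0.00576) over the 6 libraries and 0.21 ± 0.21 (adjusted p = 0.578) over the 8, and the 6-library call held under every alternative run. Pcgf5 and Pcgf6, subunits of variant PRC1 complexes, were not called, with log2 fold changes of -0.17 (95% interval -0.47 to 0.13) and 0.45 (0.08 to 0.83; adjusted p = 0.0556). Rnf2, the main RING ligase of PRC1, stayed between 47.2 and 62.0 in all 8 libraries, with a log2 fold change of -0.03 (-0.32 to 0.26). Pcgf1 (5.67 to 10.1), Ring1 (6.72 to 10.1) and the polyhomeotic scaffold genes Phc1 (6.72 to 9.21), Phc2 (8.38 to 12.8) and Phc3 (1.68 to 3.85) did not reach the filter. In PRC1 as a whole, 3 of 7 tested subunits rose, Cbx8 among them, and 0 fell, a share called near the 43.1% of all genes.

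Promoters are shown for 3 genes that rose (Cbx8, Bmi1, Kdm5b) and 1 that fell (Suv39h1). They are examples chosen after their values had been seen, from the genes whose calls held under the alternatives and whose windows the table holds. They are RefSeq windows on GRCm38.p6, from 250 bases before to 50 bases after the start site, 5′ to 3′ on the gene's strand. Capitals mark matches on either strand to the E-box CACGTG, the cyclic AMP response element TGACGTCA and the GC box GGGCGG, which the other strand reads as CCGCCC. The 4 windows are Cbx8 at chr11:119040864-119041163, Bmi1 at chr2:18676768-18677067, Kdm5b at chr1:134559928-134560227 and Suv39h1 at chrX:8074711-8075010.
Cbx8: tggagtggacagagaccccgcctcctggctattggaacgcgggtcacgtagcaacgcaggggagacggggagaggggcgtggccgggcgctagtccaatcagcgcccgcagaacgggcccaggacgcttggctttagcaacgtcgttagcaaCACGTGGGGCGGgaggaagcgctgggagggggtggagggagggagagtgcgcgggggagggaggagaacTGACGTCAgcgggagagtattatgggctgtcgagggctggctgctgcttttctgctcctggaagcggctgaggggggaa
Bmi1: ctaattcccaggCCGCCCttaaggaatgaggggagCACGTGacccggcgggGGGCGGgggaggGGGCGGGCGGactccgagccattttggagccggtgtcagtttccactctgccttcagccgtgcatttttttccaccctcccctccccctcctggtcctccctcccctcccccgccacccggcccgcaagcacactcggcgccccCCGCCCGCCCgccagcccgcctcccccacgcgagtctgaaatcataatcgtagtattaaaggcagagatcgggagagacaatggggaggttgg
Kdm5b: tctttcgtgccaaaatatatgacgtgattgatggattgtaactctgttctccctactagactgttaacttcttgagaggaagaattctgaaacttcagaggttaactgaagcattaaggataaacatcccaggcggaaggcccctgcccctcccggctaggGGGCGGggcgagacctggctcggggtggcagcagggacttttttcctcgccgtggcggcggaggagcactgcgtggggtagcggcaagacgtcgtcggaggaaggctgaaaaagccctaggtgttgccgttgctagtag
Suv39h1: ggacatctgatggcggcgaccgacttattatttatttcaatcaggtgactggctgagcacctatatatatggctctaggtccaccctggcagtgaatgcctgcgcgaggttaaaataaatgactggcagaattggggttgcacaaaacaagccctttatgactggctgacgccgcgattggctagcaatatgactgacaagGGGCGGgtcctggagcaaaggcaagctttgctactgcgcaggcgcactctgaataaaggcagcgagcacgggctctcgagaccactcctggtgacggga

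In these windows Bmi1 held 6 GC boxes, some overlapping one another, and 1 E-box, and Cbx8 held 1 E-box directly followed by its 1 GC box, as well as 1 cyclic AMP response element. Kdm5b and Suv39h1 each held 1 GC box and neither of the other motifs. GC content was 66.0% for Cbx8, 66.3% for Bmi1, 54.7% for Kdm5b and 53.0% for Suv39h1. Among all called genes, 9 windows of 7 genes that rose had a median GC content of 57.7% and 16 CpG dinucleotides. The 9 windows of 5 genes that fell had 71.0% and 37, the other way from the windows shown. An E-box was in 2 windows of genes that rose and in 1 of genes that fell, the cyclic AMP response element in 1 and 0. The table gave 63 windows for 46 of the 57 genes. Their median GC content was 64.3% with a median of 28 CpG dinucleotides, against 52.7% and 7 over all 32851 windows of that length. The E-box was in 15.9% of the windows of these genes and in 7.15% of all windows, the cyclic AMP response element in 3.17% and 1.79%, and the GC box in 74.6% and 35.7%. TATAAA, the core of the TATA box (TTTATA on the other strand), was in 1.59% and 13.6%. These are counts of letters, and windows of 1 gene can overlap.

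The PRC2 core differed little between the groups. Ezh2, the main methyltransferase of PRC2 in dividing cells, read 19.4, 12.3, 12.7 and 22.7 in ex vivo CLP 1 to 4 and 22.1, 19.2, 16.2 and 14.3 in cCLP 1 to 4. The groups overlapped with and without the 2 libraries, and the 6-library log2 fold change was -0.10 (95% interval -0.58 to 0.37; adjusted p = 0.71). Its partners Eed (-0.23; -0.49 to 0.03) and Suz12 (0.11; -0.21 to 0.42), which the enzyme needs for activity, and the histone chaperone Rbbp4 (-0.06; -0.28 to 0.16) were not called either. Rbbp7, the paralog of Rbbp4, fell from 156 ± 8.08 to 128 ± 7.05 (SD, n = 3), a log2 fold change of -0.28 ± 0.10 (adjusted p = 0.0469), and one of -0.06 ± 0.15 (adjusted p = 0.825) over the 8 libraries. The 6-library call was lost in 8 alternatives, with adjusted p of 0.0616 and 0.113 when ex vivo CLP 1 or 4 was left out, 0.0893 without cCLP 2, 0.124 without cCLP 3 and 0.182 without cCLP 4. An exon of Rbbp7 overlaps the expressed gene Txlng on the opposite strand. Mtf2, which guides PRC2 to CpG islands, was not called (0.19; -0.08 to 0.46), and Ezh1 (7.60 to 10.9), Jarid2 (3.80 to 7.48) and Phf19 (1.07 to 7.08) did not reach the filter.

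Alternative subunits of the same complex were set against each other as log2 ratios of scaled values plus 1, with an exact two-sided permutation test over libraries and adjustment over 3 ratios. The smallest p that 4 against 4 libraries can give is 0.0286, and 3 against 3 cannot go below 0.1. Ezh1 over Ezh2 was -0.80 ± 0.38 (SD, n = 4) in ex vivo CLP and -0.87 ± 0.23 (SD, n = 4) in cCLP, which did not differ beyond the spread (exact p = 0.771, adjusted p = 0.771), and the sign of the difference turned over the 6 libraries (0.14, exact p = 0.7). Cbx7 over Cbx2 was -1.59 ± 1.02 and -3.00 ± 0.97 (SD, n = 4; exact p = 0.0571, adjusted p = 0.171). Over the 6 libraries that ratio was -1.10 ± 0.35 and -3.47 ± 0.27 (SD, n = 3; exact p = 0.1, adjusted p = 0.15), with groups apart. Pcgf5 over Bmi1 was -0.50 ± 0.46 and -0.82 ± 0.40 (SD, n = 4; exact p = 0.314, adjusted p = 0.471), and over the 6 libraries -0.31 ± 0.33 and -1.01 ± 0.21 (SD, n = 3; exact p = 0.1, adjusted p = 0.15). None of the 3 ratios passed the threshold.

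**Figure D3:**
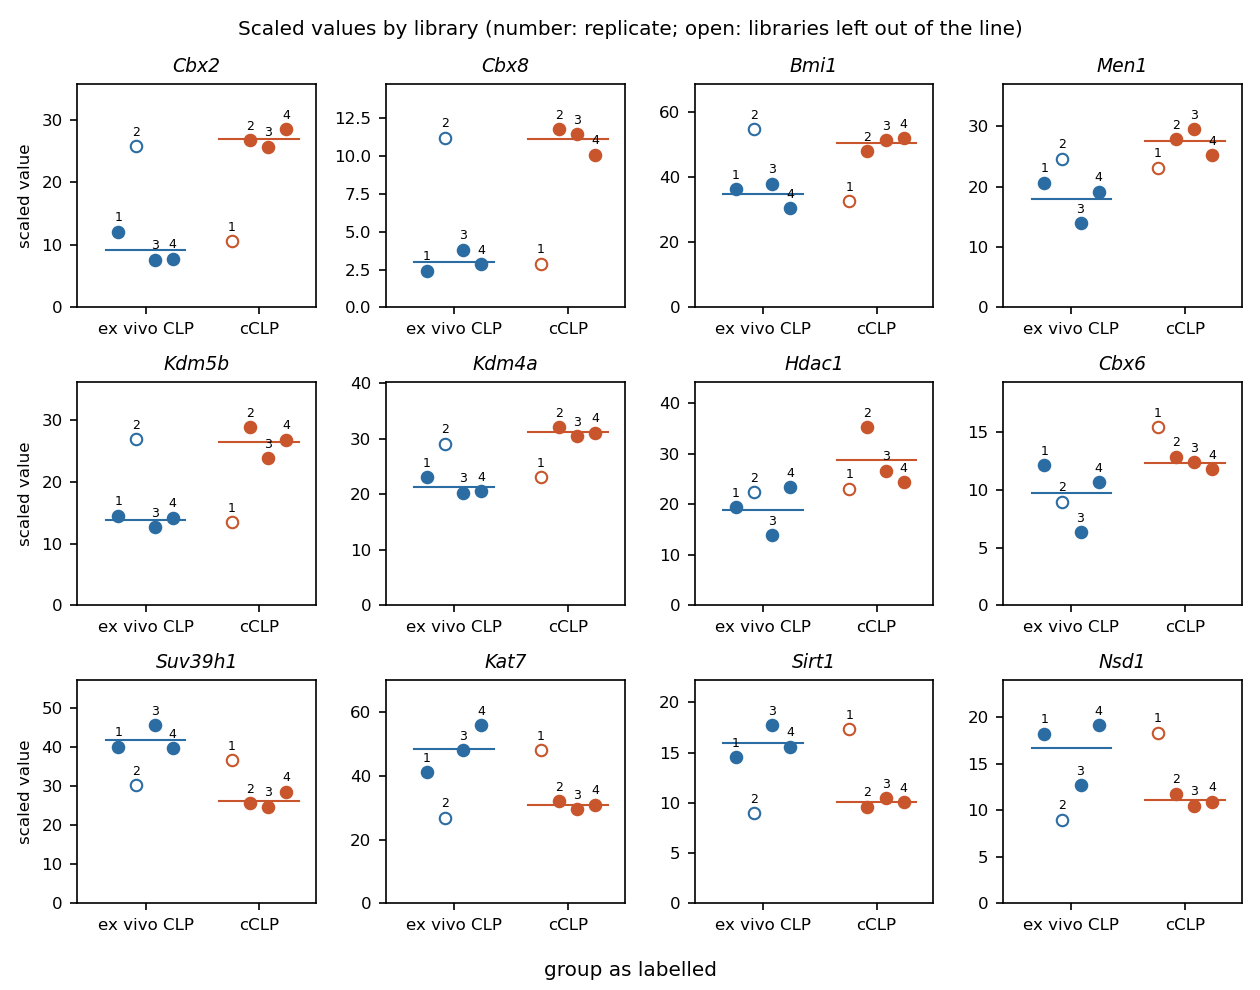
Scaled values by library for 12 chromatin genes, with ex vivo CLP and cCLP side by side in each panel; open points mark ex vivo CLP 2 and also cCLP 1, and lines are means of the other 3 libraries of a group. For Cbx2 and Cbx8, the open ex vivo point lies at the height of the filled cCLP points (25.8 and 11.2), and the open cCLP point lies with the filled ex vivo points (10.6 and 2.89).

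In the trithorax complexes, Men1 rose while its partners were not called. Men1 (chr19:6334979-6340891) encodes menin, which tethers MLL enzymes to chromatin, Hox genes included. It read 20.6, 24.6, 13.9 and 19.1 in ex vivo CLP 1 to 4 and 23.1, 27.8, 29.5 and 25.2 in cCLP 1 to 4. Every one of cCLP 2 to 4 lay above all 4 ex vivo libraries, and cCLP 1 lay below ex vivo CLP 2. Its log2 fold change was 0.43 ± 0.17 over the 8 libraries (unadjusted p = 0.0314) and 0.61 ± 0.15 over the 6 (adjusted p = 0.0128, or 0.0524 without cCLP 3). Ash2l and Wdr5, core subunits shared by these complexes, had log2 fold changes of 0.06 (95% interval -0.14 to 0.27) and -0.21 (-0.42 to -0.01; adjusted p = 0.0911). The methyltransferases Kmt2a, Kmt2b, Kmt2c and Kmt2d were listed between 0.952 and 6.41 in every library and were not tested.

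Of the H3K9 methyltransferases, which mark silent chromatin, Suv39h1 fell and Setdb1 rose. Suv39h1 (chrX:8061171-8074760), which marks pericentric heterochromatin, read 40.0, 30.2, 45.6 and 39.7 in ex vivo CLP 1 to 4 and 36.6, 25.7, 24.8 and 28.5 in cCLP 1 to 4. Values of cCLP 2 to 4 lay below all 4 ex vivo libraries, and cCLP 1 was the only cCLP library to overlap them. The log2 fold change was -0.42 ± 0.16 over the 8 libraries (unadjusted p = 0.0312) and -0.65 ± 0.10 over the 6 (adjusted p = 0.00158), a call that held in every alternative run. Setdb1, which silences retroelements, rose from 16.7 ± 2.33 to 22.7 ± 0.81 (SD, n = 3), a log2 fold change of 0.43 ± 0.11 (adjusted p = 0.0186), against 0.25 ± 0.14 (adjusted p = 0.485) over the 8 libraries. The 6-library adjusted p of Setdb1 was 0.0548 without ex vivo CLP 4, 0.0697 without cCLP 2 and 0.0619 without cCLP 4, and 75 bases of its exons overlap Cers2 on the opposite strand. Ehmt1 (0.23; -0.15 to 0.62) and Ehmt2 (0.12; -0.11 to 0.35), which act as a pair on euchromatin, were not called, and Suv39h2 (3.21 to 6.06), the paralog of Suv39h1, was not tested.

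Nsd1 (chr13:55209782-55318325), a methyltransferase of histone H3 lysine 36, fell over the 6 libraries. Nsd1 read 18.2, 8.96, 12.7 and 19.1 in ex vivo CLP 1 to 4 and 18.3, 11.8, 10.5 and 10.9 in cCLP 1 to 4. Ex vivo CLP 3 lay just above cCLP 2, and ex vivo CLP 2 was the lowest library of all. The log2 fold change was -0.53 ± 0.16 (adjusted p = 0.0265) over the 6 libraries and -0.16 over the 8, and the call was lost without ex vivo CLP 1 (0.0616), ex vivo CLP 4 (0.0835), cCLP 2 (0.0532), cCLP 3 (0.0856) or cCLP 4 (0.0764). Setd2, which trimethylates the same residue during transcription, was not called (-0.33; -0.65 to -0.02; adjusted p = 0.0853). Dot1l, the lysine 79 methyltransferase, read 1.12 to 6.37 and was not tested.

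Histone demethylases gave 3 of 6 tested genes higher and 1 lower, where 21.1% of all genes were higher and 22.0% lower. Kdm5b (chr1:134560171-134635285), which removes methylation from lysine 4 of histone H3, read 14.6, 26.9, 12.7 and 14.2 in ex vivo CLP 1 to 4 and 13.5, 28.9, 23.8 and 26.8 in cCLP 1 to 4. Again ex vivo CLP 2 matched cCLP 2 to 4 and cCLP 1 matched the others. Over the 6 libraries Kdm5b went from 13.8 ± 1.00 to 26.5 ± 2.55 (SD, n = 3), a log2 fold change of 0.89 ± 0.11 (adjusted p = 0.000406), and over the 8 the value was 0.43 ± 0.29 (adjusted p = 0.485). Kdm4a (chr4:118136957-118180043), which acts on lysines 9 and 36, read 23.0, 29.1, 20.3 and 20.5 in ex vivo CLP 1 to 4 and 23.1, 32.1, 30.5 and 31.0 in cCLP 1 to 4. Its cCLP 2 to 4 values lay above all ex vivo libraries, and the log2 fold change was 0.53 ± 0.09 (adjusted p = 0.00262) over the 6 libraries and 0.32 ± 0.15 (adjusted p = 0.485) over the 8. The calls of Kdm5b and Kdm4a held in every alternative run.

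Kdm5a, the paralog of Kdm5b, rose less, from 17.9 ± 1.02 to 22.6 ± 1.48 (SD, n = 3), with a log2 fold change of 0.32 ± 0.10 (adjusted p = 0.0289), against 0.15 ± 0.14 (adjusted p = 0.548) over the 8 libraries. Its 6-library adjusted p was 0.0609 without ex vivo CLP 4, 0.11 without cCLP 2 and 0.112 without cCLP 4, and 251 bases of its exons overlap Ccdc77 on the opposite strand. Kdm2b, which brings a variant PRC1 complex to CpG islands, fell from 13.2 ± 1.46 to 10.01 ± 0.77 (SD, n = 3), a log2 fold change of -0.37 ± 0.12 (adjusted p = 0.0389), against -0.14 ± 0.18 (adjusted p = 0.657) over the 8 libraries. That 6-library call was lost in 8 alternatives, with adjusted p of 0.0568 and 0.103 when ex vivo CLP 3 or 4 was left out, 0.124 without cCLP 2, 0.124 without cCLP 3 and 0.0645 without cCLP 4. Kdm2b shares 627 exon bases with Rnf34 on the opposite strand, which was itself expressed (33.3 to 66.6), so the source of reads in that stretch cannot be told apart. Kdm1a, the lysine 4 demethylase of the CoREST complex, and Kdm2a were not called, with log2 fold changes of -0.04 (95% interval -0.25 to 0.18) and 0.04 (-0.19 to 0.28). Kdm6b, which removes the mark that PRC2 sets, read 0.839 to 7.08 and was not tested.

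The paired class I deacetylases Hdac1 and Hdac2, catalytic subunits of the Sin3, NuRD and CoREST corepressors, both rose over the 6 libraries. Hdac1 (chr4:129516104-129542713) read 19.4, 22.4, 13.9 and 23.4 in ex vivo CLP 1 to 4 and 23.1, 35.3, 26.7 and 24.3 in cCLP 1 to 4. The value of cCLP 4 lay just above that of ex vivo CLP 4, and cCLP 2 stood above all others. The log2 fold change was 0.45 ± 0.19 over the 8 libraries (unadjusted p = 0.0423) and 0.59 ± 0.20 over the 6 (adjusted p = 0.0445). This call was lost without ex vivo CLP 1 (0.0662), ex vivo CLP 3 (0.106), cCLP 2 (0.143), cCLP 3 (0.0856) or cCLP 4 (0.0518), and also with no filter on low values (0.0535), under total scaling (0.0868) and without trend and robust moderation (0.0509). Hdac2 rose from 42.2 ± 4.89 to 56.2 ± 1.67 (SD, n = 3), a log2 fold change of 0.41 ± 0.11 (adjusted p = 0.0158, or 0.0554 without cCLP 3 and 0.0638 without cCLP 4), against 0.22 ± 0.15 (adjusted p = 0.485) over the 8 libraries. Hdac3, the deacetylase of the NCoR and SMRT complexes, stayed between 32.6 and 38.1 in all 8 libraries, with a log2 fold change of 0.01 (-0.22 to 0.23). The class IIa genes Hdac5 (-0.24; -0.71 to 0.23) and Hdac7 (0.43; 0.02 to 0.83; adjusted p = 0.0847) were not called.

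Sirt1 (chr10:63319005-63381704), a nuclear deacetylase that uses NAD, fell. It read 14.6, 8.96, 17.7 and 15.6 in ex vivo CLP 1 to 4 and 17.3, 9.62, 10.5 and 10.1 in cCLP 1 to 4, so that ex vivo CLP 2 was lower than every cCLP library. The log2 fold change over the 6 libraries was -0.61 ± 0.11 (adjusted p = 0.00298) and held in every alternative run, while over the 8 libraries it was -0.24 (adjusted p = 0.587). Sirt2 was not called (0.29; -0.11 to 0.69), and Sirt6 (3.64 to 5.71) was not tested.

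Among acetyltransferases, Kat7 (chr11:95274259-95310246), the enzyme of the HBO1 complex, fell. It read 41.2, 26.9, 48.1 and 55.95 in ex vivo CLP 1 to 4 and 48.1, 32.1, 29.5 and 31.0 in cCLP 1 to 4. The groups were apart without ex vivo CLP 2 and cCLP 1 and crossed over with them. Its log2 fold change was -0.62 ± 0.12 (adjusted p = 0.00456) over the 6 libraries, in every alternative a call, and -0.26 (adjusted p = 0.557) over the 8. Kat2a, of the SAGA and ATAC complexes, was not called (-0.06; -0.34 to 0.23), nor was Kat6a, which acetylates lysine 9 and is needed by blood stem cells (0.32; -0.11 to 0.74). The coactivators Ep300 (4.48 to 8.66) and Crebbp (4.48 to 9.21) were not tested.

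The 19 genes below the filter were all listed above 0 in all 8 libraries. With no filter on low values, a setting in which 36.6% of 13755 genes were called, 4 of the 19 were called, all lower in cCLP. Phf19, an accessory subunit that binds methylated lysine 36 and recruits PRC2, had 6.06, 1.12, 5.07 and 7.08 in ex vivo CLP 1 to 4 and 5.78, 1.07, 2.86 and 1.68 in cCLP 1 to 4 (6-library log2 fold change -1.34 ± 0.24, adjusted p = 0.00362). Kdm6b gave -1.20 ± 0.36 (adjusted p = 0.0311), Cbx7 -0.88 ± 0.17 (adjusted p = 0.00568) and Phc3 -0.68 ± 0.14 (adjusted p = 0.00736). At these levels 1 deposited unit is a large part of a value. Dot1l (-0.77, adjusted p = 0.0574) and Suv39h2 (-0.43, adjusted p = 0.0518) were not called in that setting.

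The 2 libraries that lie with the other group did so for the chromatin genes as for the rest. Of the 16 genes called over the 6 libraries, ex vivo CLP 2 was nearer to the mean of cCLP 2 to 4 for 15 (93.8%), and cCLP 1 was nearer to the mean of ex vivo CLP 1, 3 and 4 for 14 (87.5%). Over all 2838 genes called, the shares were 91.4% and 93.9%. The 2 libraries were left out because they lie with the other group, and these genes were called between the remaining 6. Such shares therefore follow from that choice and are not independent support. In summed proliferation markers, ex vivo CLP 2 had 1754 and cCLP 1 had 2444, each within or near the range of the other group.

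Other genes of the same systems, listed apart from the 57, moved in both directions. Of 106 further enzymes and complex subunits in the tables, 70 were tested over the 6 libraries, 12 rose and 19 fell, with a median log2 fold change of -0.08. The share called was 44.3%, near the 43.1% of all genes. Over the 8 libraries 0 of 69 were called, and 11 had an unadjusted p below 0.05, where 7.51% of all genes did. Against 21.1% of all genes higher and 22.0% lower, other acetyltransferase genes gave 2 higher and 7 lower of 11 tested (median -0.43), and other deacetylases 0 higher and 3 lower of 4. Ncoa3, a steroid receptor coactivator, fell from 14.3 to 6.95 (log2 fold change -0.94, adjusted p = 0.000597), and Hdac9, a class IIa deacetylase, from 13.4 to 5.01 (-1.27 ± 0.16, adjusted p = 0.000514). For Ncoa3 and Hdac9, cCLP 2 to 4 lay below the filter. Ing4, which reads lysine 4 methylation for the HBO1 complex, rose from 19.1 to 29.9 (0.63, adjusted p = 0.00273).

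Other demethylases gave 4 higher and 1 lower of 9 tested (median 0.28), beside the same shares of all genes. Kdm3a, a lysine 9 demethylase, rose from 19.2 to 40.3 (1.03 ± 0.11, adjusted p = 0.000149), and Jmjd6 fell from 18.3 to 14.2 (-0.34, adjusted p = 0.0314). Corepressor scaffolds had 2 higher and 1 lower of 16 tested: Chd3, a NuRD remodeller, rose from 25.02 to 51.5 (1.02 ± 0.15, adjusted p = 0.00101), and Sap30, of the Sin3 complex, fell from 62.2 to 34.5 (-0.81, adjusted p = 0.00829). Other methyltransferases gave 2 higher and 1 lower of 10, with Prmt5, an arginine methyltransferase, up from 28.6 to 45.5 (0.66 ± 0.12, adjusted p = 0.00317) and Setd7 down from 17.9 to 12.3 (-0.51, adjusted p = 0.00369). Other Polycomb genes gave 2 higher and 5 lower of 11 tested: Epop, a PRC2 partner, rose from 7.89 to 15.9 (0.94 ± 0.16, adjusted p = 0.00229, with one group below the filter), and L3mbtl3, a methyl-lysine reader, fell from 20.5 to 12.3 (-0.70 ± 0.09, adjusted p = 0.000696). Of other trithorax genes, 9 were tested and only Paxip1 passed, falling from 22.3 to 17.4 (-0.34, adjusted p = 0.0215). Over the 8 libraries, the 12 further genes named here had adjusted p of 0.485 to 0.78, and among them the groups were apart for Prmt5 alone (0.52 ± 0.14, unadjusted p = 0.0045).

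**Figure D4:**
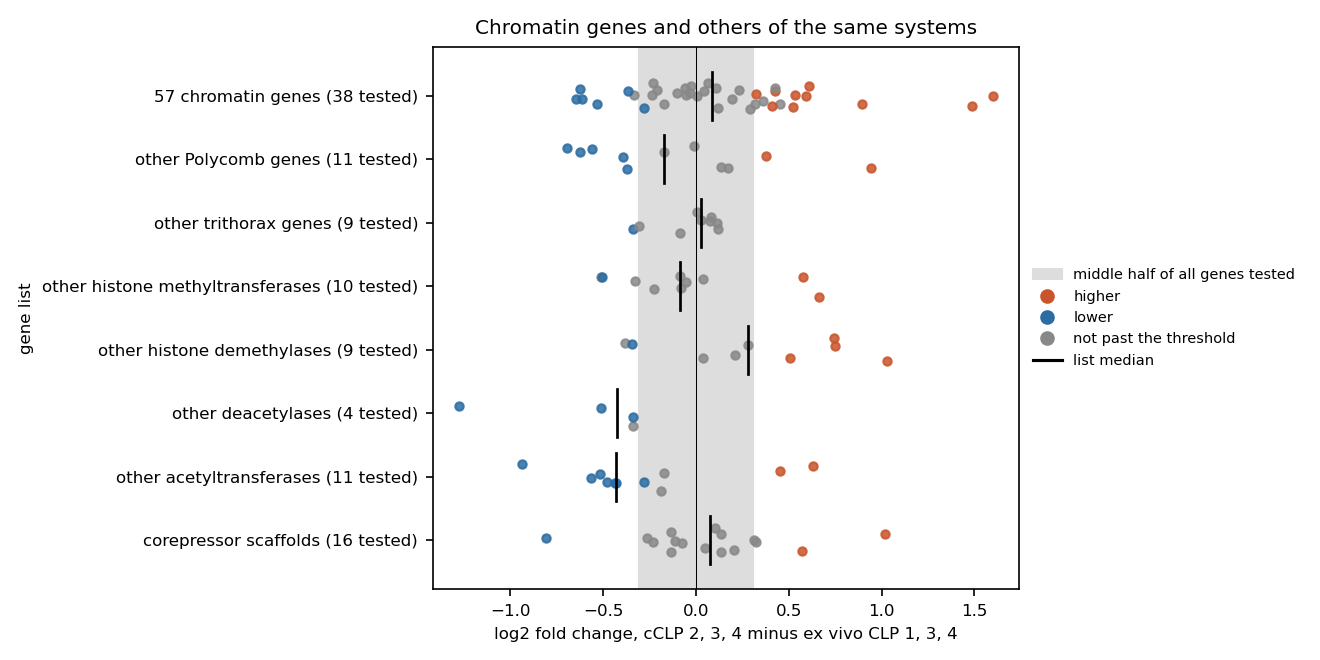
Each point is the 6-library log2 fold change (cCLP minus ex vivo CLP) of 1 tested gene, in rows for the 57 chromatin genes and 7 further lists, with called genes marked; the grey band is the middle 50% of all genes tested (-0.31 to 0.31). Points of other acetyltransferases lie mostly to the left of 0 (median -0.43) and those of other demethylases mostly to the right (median 0.28).

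Hox genes are known targets of both systems. Of 38 in the tables, 23 were listed at 0 in all 8 libraries and 4 were tested. Hoxa7, Hoxa10 and Hoxa11, 3 of the 4 tested, were called higher over the 6 libraries, where 21.1% of all genes were higher. The other, Hoxa9, was not called. Hoxa10 and Hoxa11 were below the filter in ex vivo CLP 1, 3 and 4, so that only a rise could be tested. Hoxb6 was not tested, with deposited values of 6, 6 and 9 in cCLP 2 to 4. Hoxb3 (3, 2 and 3) and Hoxb5 (2, 1 and 2) were not tested either. These Hoxb genes had no value above 0 in ex vivo CLP 1, 3 or 4. Untested Hoxa5 (5, 3 and 8 against 4, 7 and 5) and Hoxa6 (4, 2 and 5 against 3, 5 and 3) overlapped. Over the 8 libraries, Hoxa7 had a log2 fold change of 0.38 ± 0.14 (adjusted p = 0.485), Hoxa10 2.05 ± 1.23 (adjusted p = 0.485) and Hoxa11 2.24 ± 1.55 (adjusted p = 0.488). Meis1, the Hox cofactor, was tested and not called in either comparison. Hoxa10 read 2.42, 60.5, 2.53 and 2.83 in ex vivo CLP 1 to 4 and 2.89, 58.8, 53.3 and 65.4 in cCLP 1 to 4, while Hoxa11 averaged 19.8 in cCLP 2 to 4 and had a listed value of 0 in ex vivo CLP 1, 3 and 4. Ex vivo CLP 2 lay with cCLP 2 to 4 for Hoxa10, as it did for Cbx2, Cbx8 and Kdm5b.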

How the data were processed

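The values deposited by the authors are whole numbers per Ensembl gene ID, treated as a score because they vary less than counts can: between ex vivo CLP 3 and 4 the dispersion index was 0.458 over 6896 genes, where simulated counts gave 1.01, and between cCLP 3 and 4 it was 0.26. Depth is therefore unknown, and no count test was used. Per the submitters' processing notes, TopHat2, Bowtie2, HTSeq 1.0.6 and GRCm38 (mm10) were used; their roles, the strand setting and any later scaling are not given in the sources used here. GENCODE vM21 gave symbols and positions for 37607 of 39179 IDs (the rest hold 0.31% of the values), and 0 pairs of libraries were identical.

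Scores were scaled by trimmed means of log ratios (30% of ratios and 5% of levels trimmed). Genes with scaled values of at least 10 in a number of libraries equal to the smaller group were fitted as log2(scaled value + 1), the pseudocount being 1, with limma 3.58.1 in R 4.3.3 (trend, robust moderation), so fold changes of low genes are understated. Tests were two-sided, adjusted over all genes tested, with adjusted p below 0.05 called. Ratios were tested exactly with SciPy 1.17.1 in Python 3.11.15. On simulated data the 6-library fit recovered 82% of 2-fold and 95% of 4-fold changes among 6586 genes, and the 8-library fit 68% and 89% among 6555. In the simulation every cCLP library carried the change. The 8-library shares therefore do not describe data in which 2 libraries lie with the other group.

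The genes, lists and library choice were made with earlier results of these data known. Per-library values are given for genes called over 6 libraries with groups apart and a log2 size of at least 0.5. They are also given for the 5 genes with the smallest p over 8 libraries. Values of Ezh2, Cbx7, Phf19, Hoxa10 and the untested Hox genes named were added after they had been seen. From each further list the called genes with the largest change up and down are named. Prmt1 and Hoxd4 had no matching ID and were not analysed here. Whether the replicate numbers pair the libraries could not be decided, as given with the alternatives (other scalings, pseudocounts, filters, moderation, the block, left-out libraries).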

Additional observations from a re-analysis of the deposited data

Results flagged for a closer look

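In 6 of 30 groups of 4 libraries checked (12 chromatin genes and 3 ratios in both groups), 1 library stood apart from the other 3 by more of the group's range than Dixon's 95% critical value for 4 libraries, which chance gives in about 1 in 20 groups of unselected values. All 6 were on the libraries labelled ex vivo CLP 2 or cCLP 1. Most of these genes were chosen because the other 6 libraries fell into groups apart, which favours such gaps, so that neither this number nor where they fall is independent support. The library labelled cCLP 1 stood highest of its group for Kat7 (48.1, a gap of 0.862 of the range), Sirt1 (17.3, 0.89) and Nsd1 (18.3, 0.835), and lowest for Cbx2 (10.6, 0.843). The library labelled ex vivo CLP 2 stood highest of its group for Kdm5b (26.9, 0.867) and Cbx8 (11.2, 0.843).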

How the results depend on the processing

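Over the 8 libraries, limma called 0 genes under each alternative run (492 had an unadjusted p below 0.05 in the fit reported). Over the 6 libraries, leaving out 1 library at a time gave 943 to 1573 genes higher (1388 with all 6), 1197 to 1747 lower (1450), 6 to 12 chromatin genes higher (10) and 3 to 7 lower (6). With no filter, 2274 genes were higher and 2760 lower, and 10 chromatin genes were lower; more genes are tested there. Total scaling left 3 chromatin genes lower, and the cause was not tested. Of the 16 chromatin genes called, 8 were called in every alternative in which they were tested, and of the 22 not called, 5 (Mtf2, Pcgf6, Setd2, Hdac5 and Hdac7) were called in at least 1. Deviations from the labelled group means had correlations of 0.592, 0.843, -0.575 and -0.857 between same-numbered libraries. These means include the 2 libraries that lie with the other group, so the correlations cannot decide whether the numbers pair the libraries. A replicate block gave 0 genes over 8 libraries and, over 6, 1111 higher and 1242 lower, with 10 chromatin genes higher and 5 lower. Over 6 libraries only replicate numbers 3 and 4 occur in both groups, so the block fit there draws the group difference from those numbers alone. Its calls, counted among the alternatives, therefore rest on fewer libraries than those of the other fits. Rbbp7, Kdm2b and Kdm5a had limma adjusted p of 0.228, 0.132 and 0.314 with the block. The difference of the Ezh1 to Ezh2 ratio turned from -0.07 to 0.14 over the 6 libraries, 0.0516 without ex vivo CLP 2 and 0.011 without cCLP 1, its leave-one-out values running from -0.25 to 0.0516. Those of the other ratios ran from -1.90 to -1.16 (Cbx7 to Cbx2) and -0.51 to -0.14 (Pcgf5 to Bmi1). The self-test made calls at these sizes, but depth is unknown, so precision at low values cannot be stated.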
